A study of Homo sapiens with 8 samples.

Results

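The sites described here are the HNF4A peaks of ESO26 cells that overlap a GATA4 peak by at least 1 bp. They number 453 of the 5494 peaks in the HNF4A list, which is 8.25% (exact 95% binomial interval 7.53 to 9.004%), and 453 of the 2607 peaks in the GATA4 list, which is 17.4% (15.9 to 18.9%). Each shared HNF4A peak overlapped exactly 1 GATA4 peak and the reverse held as well, so the sites form 453 pairs. They were selected on the positions of the peaks alone, and the overlap counts that follow from this choice are a description. ESO26 is a cultured human line derived from an adenocarcinoma of the oesophagus. Chromatin immunoprecipitation with sequencing (ChIP-seq) was done once with an antibody against HNF4A and once with an antibody against the Flag tag of GATA4, each giving 1 library and 1 peak list. The labels give neither the construct that carries the tagged GATA4 nor its level, and name no treatment for these cells. The same series holds RNA-seq of ESO26 cells with HNF4A knocked down by siRNA and of control cells, with 2 libraries in each group.

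HNF4A is a nuclear receptor that binds DNA as a dimer and maintains gene expression in liver, intestine and other endodermal epithelia. GATA4 is a zinc finger transcription factor of endoderm and heart that recognises a short motif around the letters GATA and can bind closed chromatin. In endodermal tissues the 2 families often occupy the same enhancers, stretches of regulatory DNA that act on genes at a distance. Overlap of 2 peak lists shows that a peak was called at a site in each library, and does not show that both factors sat on the same DNA molecule at the same time. The labels do not say whether the HNF4A library came from cells that carry the tagged GATA4.

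ESO26 carried the messages of both factors. Control libraries had 4129 and 3937 normalized counts of HNF4A, against 1140 and 932 after knockdown. For GATA4 the control values were 745 and 597 and the knockdown values 553 and 432. The groups did not overlap for either gene. The share of all genes for which this held was not counted, so nothing is read from it. The log2 fold change on the log2(normalized count + 1) scale was -1.97 for HNF4A (standard error 0.095, adjusted p = 1.59e-05 in limma) and -0.45 for GATA4 (standard error 0.15, adjusted p = 0.0709 in limma), against 14.1% of 15577 genes called at an adjusted p under 0.05. The call on HNF4A rests on the variance model, and without its trend the adjusted p was 0.0919 in limma. The value of GATA4 rests on single libraries: the log2 fold change moved to -0.61 without control replicate 2 (adjusted p = 0.0104 in limma), -0.29 without control replicate 1 (adjusted p = 0.216) and -0.27 without siHNF4A replicate 2 (adjusted p = 0.357). With the replicate number as a block GATA4 was called (adjusted p = 0.0127 in limma). The RNA libraries are not labelled as carrying the tagged GATA4, so they do not show its level in the cells used for ChIP-seq. The columnar epithelial markers EPCAM, CDH1, KRT8, KRT18, KRT19 and VIL1 lay between 4296 and 30712 normalized counts over the 4 libraries. The squamous keratins KRT5 and KRT14 stayed at or below 32.6, the mesenchymal markers VIM, COL1A1 and COL1A2 lay between 3.04 and 212, and the blood marker PTPRC stayed at or below 2.05.

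The number of DNA fragments behind each peak could be read back from the deposited lists. The signal value of a peak is the authors' fold enrichment, and with the formulas of the peak caller MACS2 a fold and a p-value together fix 2 quantities, the fragments piled up over the summit (the highest point of the peak) and the local background expected there. A whole number of fragments gave back the deposited −log10 p to within 0.00043 at all 5494 HNF4A peaks and to within 0.00032 at all 2607 GATA4 peaks. The genome-wide background was 1.17 fragments in the HNF4A library and 0.791 in the GATA4 library. With the narrowest peaks, 262 and 266 bp, taken as the fragment lengths, these values place the HNF4A library at 1.4999 times the size of the GATA4 library.

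Of the local backgrounds, 34.3% in each list lay above the genome-wide value on whole multiples of 1 step, 0.821 fragments in the HNF4A list and 0.547 in the GATA4 list. A further 22.6% and 23.6% lay on the finer steps that a window of 1 kb would give, and 19.6% and 19.8% at the genome-wide value. The remaining backgrounds lay neither on these steps nor at the genome-wide value. Such steps would arise from whole reads of a control library scaled down to the ChIP library. The control sizes that follow from these steps stand in a ratio of 0.999999, so by this reading both lists were called against a control of the same size. Whether it was the same library was not tested. As it may have been, signal values of the lists are given side by side, and no correlation between them is given as a result. Each list has 1 library, so no value below has a replicate check, and intervals cover counting error only.

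The shared sites rested on few fragments. Over the HNF4A summit they had a median of 18 fragments (quartiles 14 and 27), and over the GATA4 summit a median of 16 (quartiles 13 and 23). HNF4A peaks without GATA4 had a median of 16 fragments, and GATA4 peaks without HNF4A a median of 15. The lowest shared sites had 9 fragments for HNF4A and 7 for GATA4. The −log10 q, the authors' measure of confidence in a peak, was at a median of 9.38 for HNF4A and 9.78 for GATA4 at the shared sites, with lowest values of 2.19 and 2.14.

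The position of the summits within the pairs was measured next. Overlapping peaks of these widths have summits near each other by the way they were chosen, so the distances are a description. The distance between the summits had a median of 134 bp (order-statistic 95% interval 119 to 144 bp), with quartiles of 59 and 224 bp. It was at most 50 bp at 95 sites (21.0%, exact 95% interval 17.3 to 25.01%), at most 100 bp at 175 sites (38.6%, 34.1 to 43.3%) and at most 300 bp at 387 sites (85.4%, 81.8 to 88.5%). These distances are shorter than the fragment lengths at most sites. On the reference strand the GATA4 summit lay at the higher coordinate at 227 sites and at the lower one at 225, and both fell on the same base at 1 site. Neither side was favoured.

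**Figure D1:**
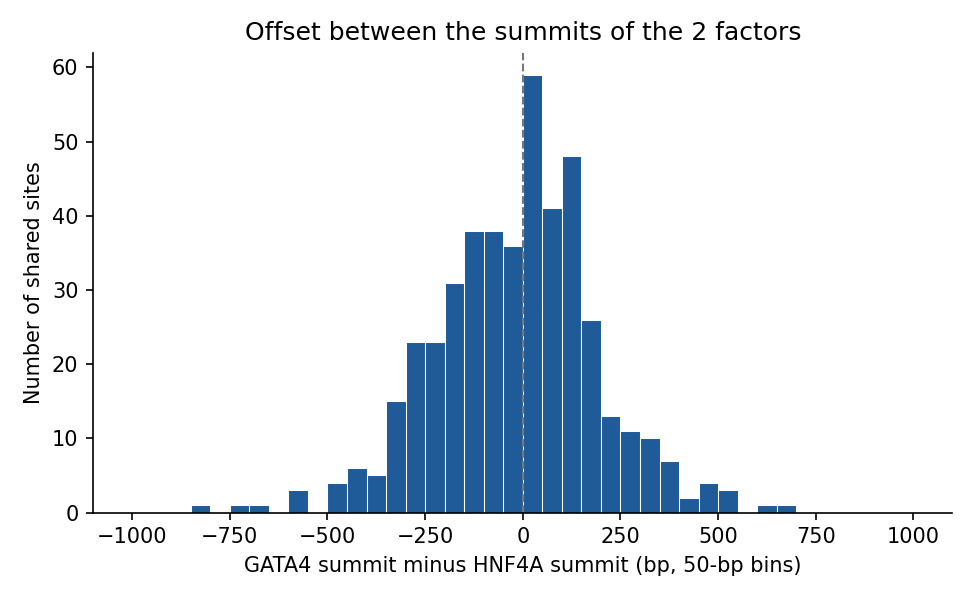
The horizontal axis gives the GATA4 summit position minus the HNF4A summit position in bp, in bins of 50 bp, and the vertical axis the number of shared sites. Bars are tallest within about a fragment length of 0 and fall off on both sides; 2 sites with summits over 1000 bp apart lie outside the axis.

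In each pair the HNF4A peak was usually the wider, at 292 of 453 sites. The GATA4 peak lay wholly inside the HNF4A peak at 147 sites, the HNF4A peak lay wholly inside the GATA4 peak at 57, and the edges were staggered at 249. The overlap had a median of 307 bp, a median of 61.4% of the HNF4A peak and 81.5% of the GATA4 peak. Each summit lay inside the other factor's peak at 292 sites (64.5%, exact 95% interval 59.9 to 68.9%), and neither did so at 47 sites (10.4%, 7.72 to 13.6%). The distance between summits did not order by strength. Its median was 135.5 bp for the 138 pairs in the top quintile of the HNF4A list by signal value (the list ranked and cut into 5 parts of like size) and 134 bp for the 72 pairs in the bottom quintile. By GATA4 signal value it was 144 bp for 127 pairs in the top quintile and 138 bp for 84 in the bottom quintile.

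The rule of 1 bp admits a small tail of weak overlaps. At 26 sites the peaks overlapped by under 100 bp. The smallest overlap was 10 bp, between chr1:155612523-155612840 for HNF4A (signal value 5.37) and chr1:155612265-155612532 for GATA4 (6.21), with summits 230 bp apart. Just outside the rule, a gap of 1 bp lay between the HNF4A peak chr10:5190137-5190398 (5.53) and the GATA4 peak chr10:5189497-5190135 (10.7). This GATA4 peak is itself shared through another HNF4A peak. Of the HNF4A peaks that were not shared, 13 had a GATA4 peak within 100 bp and 60 within 1000 bp, GATA4 peaks of shared sites included. A requirement that the overlap cover at least 50% of both peaks kept 272 sites.

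The strongest HNF4A peak among the shared sites was chr12:46383527-46385549, with 146 fragments over the summit (exact Poisson 95% interval 123 to 172), a signal value of 27.7 and rank 7 in the HNF4A list. Its GATA4 partner chr12:46384559-46385187 had 71 fragments (55.5 to 89.6), a signal value of 14.9 and rank 117 in the GATA4 list, and its summit lay 108 bp away. Both factors were well above background here, and HNF4A had its second smallest q of all its peaks at this site.

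The next HNF4A peak, chr20:43034499-43035055, had 73 fragments (57.2 to 91.8) and a signal value of 27.2, rank 9. Its GATA4 partner had 15 fragments (8.40 to 24.7) and a signal value of 7.64, rank 1162. Here a peak near the top of the HNF4A list met a GATA4 peak of ordinary strength. At chr12:32101354-32102353 both were strong, with 57 fragments and a signal value of 26.7 for HNF4A (rank 11), 34 fragments and 19.5 for GATA4 (rank 36), and summits 57 bp apart.

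The remaining 7 of the 10 strongest sites by HNF4A had HNF4A signal values between 20.4 and 23.8. Over all 10 the GATA4 signal value ran from 6.53 to 39.0 with a median of 10.0. The lowest of these belonged to chr1:192976948-192977512, with 51 HNF4A fragments and 12 GATA4 fragments (6.20 to 21.0). The GATA4 partners of the 10 strongest HNF4A peaks thus ran from rank 1 to rank 1756 of the 2607 GATA4 peaks.

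The strongest GATA4 peak of the whole list, chr12:44241003-44242560, was a shared site with 146 fragments (123 to 172) and a signal value of 39.0. Its HNF4A partner chr12:44241283-44242594 had 108 fragments (88.6 to 130.4), a signal value of 22.3 and rank 33, and the overlap of 1278 bp was the longest of all pairs. The second GATA4 peak, chr17:36070225-36070785, had 77 fragments and a signal value of 33.8, while its HNF4A partner chr17:36069841-36070589 had 18 fragments (10.7 to 28.4) and 5.49, rank 3865. The first of these sites paired strong with strong and the second strong with weak.

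At chr10:26637578-26638366 GATA4 had 51 fragments and a signal value of 29.0 (rank 4), and HNF4A had 43 fragments and 20.3 (rank 48), both over a background at the genome-wide value. At chrX:15105826-15106344 GATA4 had 44 fragments and a signal value of 25.1 (rank 9), and HNF4A had 10 fragments (4.80 to 18.4) and 5.07. The 10 strongest sites by GATA4 ran from 20.4 to 39.0 in GATA4 signal value and from 5.07 to 22.3 in HNF4A signal value, with an HNF4A median of 8.59. The 2 sets of 10 had 1 site in common, the one on chromosome 12 at the head of the GATA4 list. Both signal values were at least 10 at 38 sites and at least 13 at 13 sites.

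**Figure D2:**
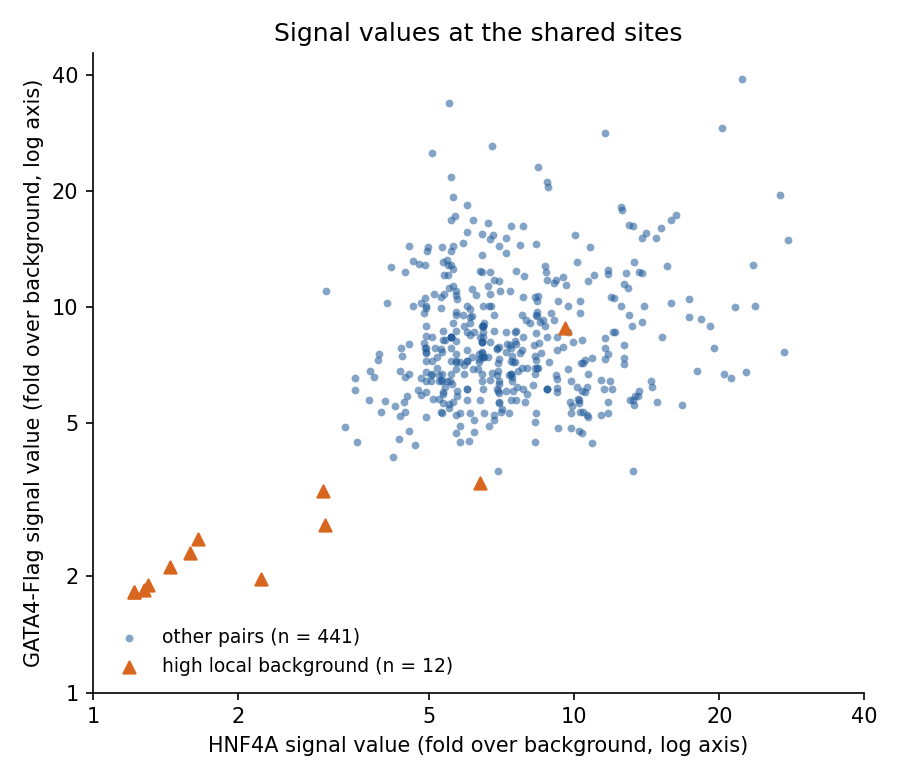
Each point is 1 shared site, with the HNF4A signal value on the horizontal axis and the GATA4-Flag signal value on the vertical axis, both fold enrichments on log axes. The 441 blue points spread over both ranges, and the 12 orange triangles, sites with a local background at least 10 times the genome-wide value in both lists, reach down to 1.22 for HNF4A and 1.82 for GATA4.

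A group of 12 sites stood apart by its background. There the local background was at least 10 times the genome-wide value in both lists, while at the other 441 it stayed at or below 7.02 times in the HNF4A list and 7.60 times in the GATA4 list. High background was found at 2.65% of the shared HNF4A peaks (exact 95% interval 1.38 to 4.58%) and at 0.615% (0.418 to 0.872%) of the HNF4A peaks without GATA4. Among GATA4 peaks the shares were 2.65% (1.38 to 4.58%) with HNF4A and 2.18% (1.61 to 2.89%) without it. The intervals of the HNF4A peaks were apart and those of the GATA4 peaks overlapped. They take the peaks as independent, but 32 of the 43 HNF4A peaks with high background lay in a single stretch of chromosome 17, described below. No difference is therefore read from these intervals. The threshold of 10 was chosen after the values were seen.

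Of these 12 sites, 8 carried the 8 lowest signal values of the entire HNF4A list, between 1.22 and 2.23. Their background was 107 to 368 times the genome-wide value. They lay on chromosomes 1, 7, 10 (4 sites), 11 and the mitochondrial genome. The site chr7:61968822-61969646 had 524 fragments for HNF4A and 532 for GATA4, and chr1:121484399-121485177 had 523 and 531. The control read back from the background was 524 reads in the HNF4A list and 532 in the GATA4 list at both sites. The control counts, and the fragment counts at the chromosome 7 site, equal 2 times the fragment lengths of 262 and 266 bp. That is the most that can pile up if each position and strand is counted once. With ChIP and control both at that limit the fold would be 1.22 and 1.83, and the deposited values at the chromosome 7 site were 1.22 and 1.83. At that limit the fold follows from the scaling of the control alone.

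The mitochondrial site was the widest. Its HNF4A peak spanned 16266 bp and its GATA4 peak 436 bp, with summits 9590 bp apart. Signal values were 2.23 and 1.98. Without the 12 sites of high background the widest shared HNF4A peak was 2023 bp, the largest distance between summits was 1344 bp, and the median distance remained 134 bp.

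The other 4 sites of high background lay on chromosome 17. At chr17:37026803-37028709 HNF4A had 173 fragments over a background of 17.2, and GATA4 had 102 over 10.7, giving signal values of 9.54 and 8.81. At chr17:39928286-39930109 HNF4A had 198 fragments over a background of 30.3 and GATA4 had 70 over 19.4, giving 6.36 and 3.49. These sites had many fragments and moderate folds. By −log10 q the first ranked 9 and the second 15 in the HNF4A list, against ranks of 759 and 2711 by signal value. Sites at chr17:37009573-37010402 (3.03 and 2.73) and chr17:37861969-37862613 (3.003 and 3.33) had low signal values for both factors. Between 36 and 40 Mb of chromosome 17, a stretch chosen after the values were seen, the 53 HNF4A peaks had a median background of 11.2 times the genome-wide value, against 1.40 times for the 251 peaks on the rest of the chromosome. Of the 43 HNF4A peaks with high background in the whole list 32 lay there.

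A milder rise was seen on chromosome 12. Between 44 and 48 Mb, also chosen after the values were seen, the median background was 3.86 times the genome-wide value over 27 HNF4A peaks and 4.00 times over 28 GATA4 peaks, against 1.29 times for the 261 HNF4A peaks elsewhere on the chromosome. This stretch holds 6 shared sites, among them the strongest site by HNF4A and the strongest by GATA4. The part of the raised background in their fragment counts was not tested, and the signal values are already divided by it.

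**Figure D3:**
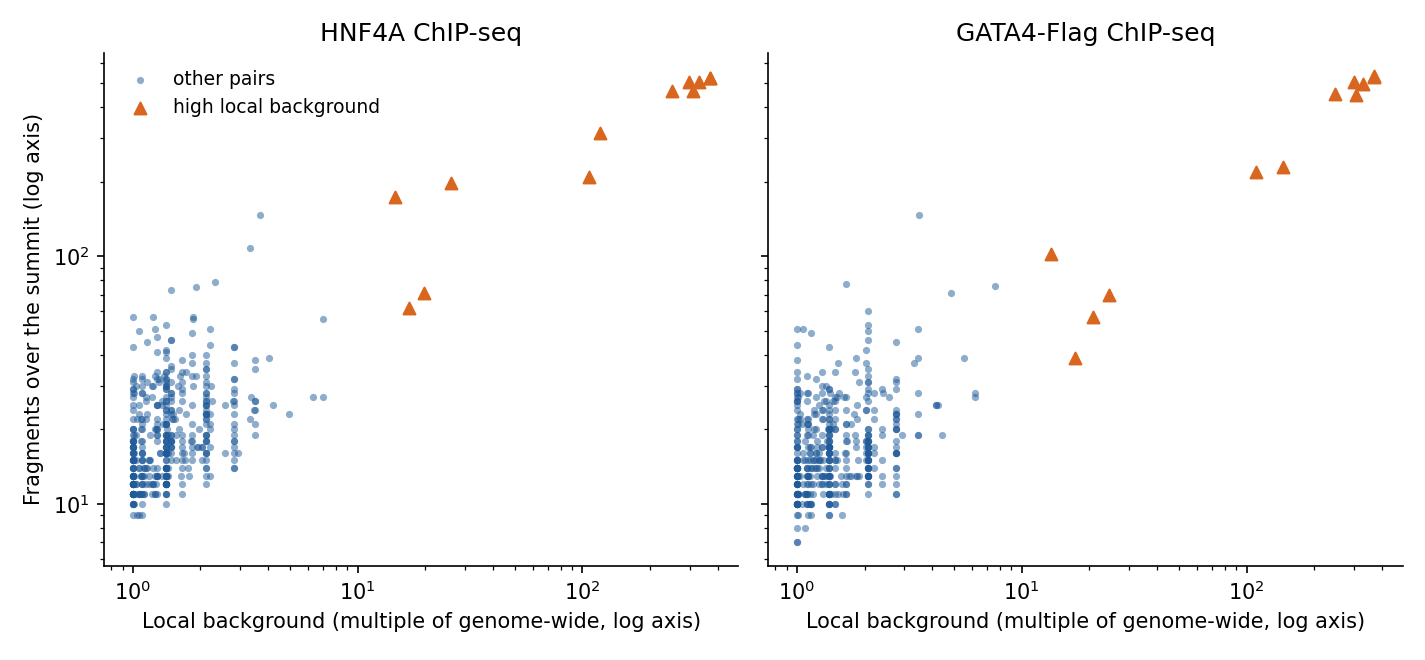
Fragments over the summit (vertical, log axis) are plotted against the local background as a multiple of the genome-wide value (horizontal, log axis) at the 453 shared sites, for HNF4A on the left and GATA4-Flag on the right. The 12 orange triangles sit to the right of all other sites, and the uppermost reach 524 and 532 fragments.

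Shared sites were wider than the rest of each list. The median width on the HNF4A side was 500 bp (order-statistic 95% interval 480 to 530 bp), against 419 bp (414 to 427 bp) for HNF4A peaks without GATA4. Their GATA4 peaks had a median of 410 bp (394 to 425 bp), against 363 bp (358 to 370 bp). A wider peak overlaps more readily, so width belongs to the way the sites were chosen. The narrowest shared HNF4A peaks were 262 bp wide, the narrowest width in the list. Of the HNF4A peaks in the narrowest quintile 5.83% were shared (exact 95% interval 4.52 to 7.38%), and of those in the widest quintile 13.8% (11.8 to 16.0%). For GATA4 the shares rose from 13.4% (10.6 to 16.7%) to 27.2% (23.4 to 31.2%).

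Signal values were then set side by side within quintiles of width. Over all widths the median HNF4A signal value was 6.82 (6.47 to 7.07) at shared sites and 6.23 (6.11 to 6.35) at HNF4A peaks without GATA4. From the narrowest to the fourth quintile by width, the HNF4A medians with and without GATA4 were 5.53 and 5.53, then 5.87 and 5.88, then 6.82 and 6.19, then 6.984 and 6.996. In the widest quintile they were 9.61 for 152 shared peaks and 8.57 for 947 others. The medians were thus higher at shared sites in the third quintile and the widest, and nearly equal in the others. No intervals were taken for the medians within quintiles. In the widest quintile the HNF4A peaks still ran from 617 to 16266 bp, so width was not held equal there. GATA4 medians were 7.65 (7.39 to 8.01) with HNF4A and 7.26 (7.19 to 7.36) without it over all widths, and from the narrowest to the widest quintile 6.14 and 6.22, 6.69 and 6.94, 7.57 and 7.39, 8.60 and 8.37, and 10.2 and 9.84. They were lower with HNF4A in the 2 narrower quintiles and higher in the wider 3.

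Shared sites were found on all chromosomes other than Y, where each list has 3 peaks. Chromosome 1 had 57 and chromosome 2 had 48. Their share of HNF4A peaks differed between chromosomes. Chromosome 13 had 28 of 178 (15.7%, exact 95% interval 10.7 to 21.9%), chromosome 9 had 10 of 237 (4.22%, 2.04 to 7.62%), chromosome 16 had 10 of 214 (4.67%, 2.26 to 8.43%) and chromosome 19 had 3 of 160 (1.88%, 0.388 to 5.38%). The interval of chromosome 13 lies above those of these 3, which were picked after the values of all chromosomes were seen. The number of GATA4 peaks for each HNF4A peak was 0.663 on chromosome 13, 0.384 on chromosome 9, 0.224 on chromosome 16 and 0.144 on chromosome 19, and its part in these shares was not tested. On chromosome 18 it was 0.607, with 3 of 56 HNF4A peaks shared (5.36%, 1.12 to 14.9%), an interval that overlaps that of chromosome 13.

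As a share of GATA4 peaks the order of the chromosomes was another. Leaving out Y and the mitochondrial genome, chromosome 11 was highest with 36 of 143 (25.2%, 18.3 to 33.1%) and chromosome 18 lowest with 3 of 34 (8.82%, 1.86 to 23.7%). Chromosome 4 had 17 of 154 (11.04%, 6.56 to 17.1%), an interval below that of chromosome 11. Chromosomes 13, 16, 19 and 9 had 23.7% (16.4 to 32.4%), 20.8% (10.5 to 35.0%), 13.04% (2.78 to 33.6%) and 11.0% (5.40 to 19.3%), with intervals that overlapped.

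**Figure D4:**
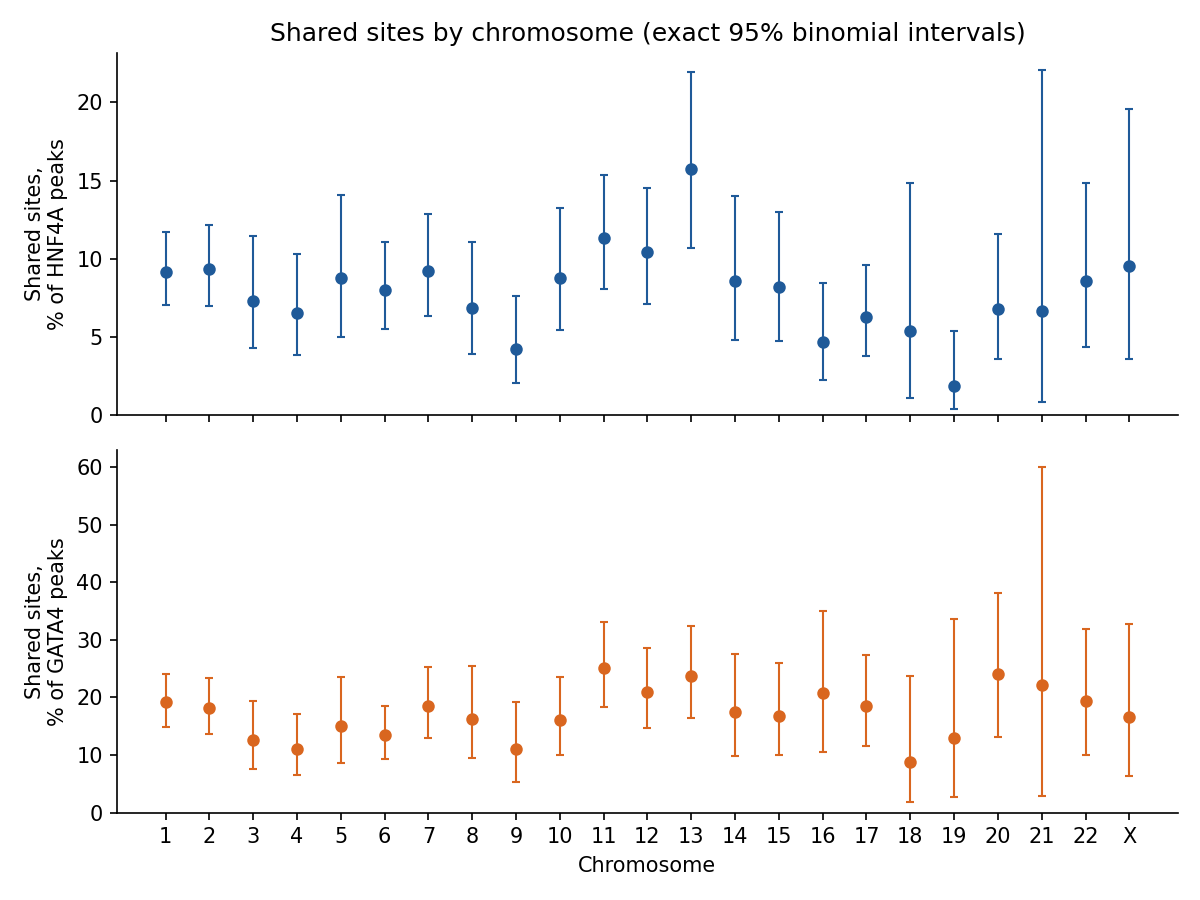
Points give shared sites as a percentage of HNF4A peaks (upper panel) and of GATA4 peaks (lower panel) on the autosomes and X, with exact 95% binomial intervals as bars; Y and the mitochondrial genome are left out. Among those plotted, chromosome 13 is highest and chromosome 19 lowest in the upper panel, and chromosome 11 is highest and chromosome 18 lowest in the lower panel.

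Most shared sites had no other HNF4A peak within 10 kb. Another HNF4A peak lay within 10 kb of 88 of 452 shared sites (19.5%, exact 95% interval 15.9 to 23.4%), leaving out the single peak of the mitochondrial genome, and of 16.7% (15.6 to 17.7%) of HNF4A peaks without GATA4. These intervals overlapped. Another GATA4 peak within 50 kb was found at 30.5% of shared sites (26.3 to 35.0%) and at 23.9% of GATA4 peaks without HNF4A (22.1 to 25.8%), and within 10 kb at 9.96% (7.35 to 13.1%) and 9.24% (8.05 to 10.5%). Another shared site within 100 kb was found for 53 of 452 (11.7%, 8.91 to 15.1%). The median distance from a shared site to the next one was 1.27 Mb.

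No window of 100 kb held more than 3 shared sites. The window on chromosome 6 from 26257351 to 26328477 held 3 shared sites among 10 HNF4A peaks. Its first site, chr6:26257351-26257946, had 32 HNF4A fragments and a signal value of 13.2 and 17 GATA4 fragments and 8.92, with summits 5 bp apart. The others had between 10 and 12 fragments for each factor. The window on chromosome 10 from 42385014 to 42400506 also held 3, all of them among the sites of high background. Next came a window on chromosome 20 from 42982787 to 43035055 with 2 shared sites among 14 HNF4A peaks.

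The region of chromosome 20 from 42930760 to 43086311, on the chromosome that carries the HNF4A gene, had 18 HNF4A peaks and 3 GATA4 peaks, each of the latter in a shared site. The coordinates are those of the first and last peak in a window that was drawn with these sites known, so nothing is read from this count. The site chr20:42982787-42984610 had 32 HNF4A fragments and a signal value of 14.4, and 11 GATA4 fragments and 6.41, with the GATA4 summit 191 bp below that of HNF4A. The site at 43034499 was described above. At chr20:43085517-43086311 the order was turned, with 21 HNF4A fragments and a signal value of 8.33 (rank 1160) and 25 GATA4 fragments and 14.5 (rank 125). The background of these 3 sites was at most 1.47 times the genome-wide value in either list. The HNF4A peak chr20:43052497-43053077, with 87 fragments and a signal value of 25.4, had no GATA4 peak.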

How the data were processed

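The authors deposited 1 narrowPeak list for each ChIP-seq library. Per the submitters' processing notes the build is hg19 and the tools named include MACS2, Bowtie, Bowtie2, Trim Galore and Picard, with no role or settings given. Each deposited peak has a fold (the signal value), −log10 p and −log10 q, a summit offset, and a score, which is −log10 q multiplied by 10 with the decimals dropped. Positions are printed counted from 1. The authors deposited the RNA-seq values as normalized counts, a signal whose normalization is not given in the sources used here.

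Peaks were intersected in Python 3.11.15 with pandas 2.3.3. Fragments and local backgrounds were solved from fold = (fragments + 1) / (background + 1) and the Poisson upper tail with scipy 1.17.1, and this step and the expression test were first tested on simulated data. The reading as fragments and control reads assumes that MACS2 made the lists, which the notes name without a role. Shares have exact binomial intervals at 95%. Expression was tested with limma 3.58.1 in R 4.3.3 on log2(normalized count + 1), for genes with a mean of at least 10, with Benjamini-Hochberg adjustment and an intensity trend. No label says that the RNA libraries are separate cultures, so p-values measure the spread between these libraries only. With 2 libraries per group an exact permutation test of 1 gene could not pass 0.05.

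The sites and lists were chosen with earlier results of these data known. Sites are named as the 10 strongest by each factor, the densest windows, and the widest and weakest. Others are named as chosen after their values were seen: the sites of high background, the 2 stretches on chromosomes 12 and 17, the window on chromosome 20, and the HNF4A peak without GATA4 on chromosome 20. No genome or annotation of hg19 was used, so genes and motifs at the sites were not analysed here, and no 4C data were analysed here.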

Additional observations from a re-analysis of the deposited data

How the results depend on the processing

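The number of shared sites, 453, was 427 with an overlap of at least 100 bp, 328 with a −log10 q of at least 5 in both lists and 441 without the 12 sites of high background, an alternative added after the data were seen. It was 272 with an overlap of at least 50% of both peaks, 175 with summits within 100 bp and 109 with a −log10 q of at least 10 in both lists, which are stricter rules by construction. The median summit distance of 134 bp was 130.5 bp and 135 bp at the 2 stricter q limits. The median HNF4A signal value rose from 6.82 to 7.40 and the median HNF4A width from 500 to 543 bp at a −log10 q of at least 5. The share of shared sites with another HNF4A peak near by was 13.3% at 5 kb and 43.8% at 50 kb, against 10.8% and 41.7% for HNF4A peaks without GATA4, with overlapping intervals at both distances. Without the sites of high background the share within 10 kb was 18.6%.

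HNF4A expression lost its call without the variance trend, at a log2 fold change of -1.97 (adjusted p = 0.0919 in limma; range over all alternatives 3.60e-11 to 0.0919). The cause was not tested. Leaving out 1 library moved HNF4A between -2.11 and -1.82 and GATA4 between -0.62 and -0.27. GATA4 passed the threshold without control replicate 2 (-0.61) and with the replicate number as a block (-0.45, adjusted p = 0.0127 in limma), with a range of its adjusted p from 0.0104 to 0.357. Where an arm was left with 1 library, that library was assumed to vary like the other group. Same-numbered libraries did not deviate together (correlation of -0.019 over 15577 genes), and no pairing was assumed. The block changed no call on HNF4A. Motif shares and genes at the sites, planned only for the case that a genome of the build was given, were not run. Depth limits the strength of single sites: a summit of 18 fragments has an exact Poisson 95% interval of 10.7 to 28.4.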

Other observations

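Ranking decides which shared sites appear strongest. By signal value chr17:37026803-37028709 and chr17:39928286-39930109 ranked 759 and 2711 in the HNF4A list, by −log10 q they ranked 9 and 15, and by fragments over the summit 11 and 10. The site chr7:61968822-61969646 ranked 1 by fragments in both lists, 5493 by signal value and 5470 by −log10 q in the HNF4A list, and 106 by −log10 q in the GATA4 list. The site chr12:46383527-46385549 ranked 7 by signal value and 2 by −log10 q in the HNF4A list.

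At chr11:62608995-62609394, a site chosen after its values were seen, HNF4A had 27 fragments over a background of 8.21 and a signal value of 3.04, while GATA4 had 76 fragments over 6.02 and a signal value of 11.0. The summits lay 5 bp apart.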
